A study of Mus musculus with 23 samples.

Results

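A set of 10 marker genes of the liver sinusoidal endothelium was followed in liver RNA from C57BL/6J mice: Stab1, Stab2, Kdr, Ptprb, Lyve1, Clec4g, Oit3, Eng, Tek and Mrc1. They were taken by name, through their Ensembl identifiers, from a gene count table of 54838 genes, and all 10 were found in it and passed the filter on low counts. The 23 libraries fall into 6 groups. In batch 2, livers came from mice injected with recombinant FSTL3 (4 libraries), FCN2 (4 libraries), EPDR1 (4 libraries) or vehicle (4 libraries). In batch 1, they came from mice injected with recombinant LBP (3 libraries, replicates 2, 3 and 4) or vehicle (4 libraries). FSTL3 (follistatin-like 3) is a secreted antagonist of activins, FCN2 (ficolin-2) a serum lectin that can start complement activation, LBP a plasma protein that binds bacterial lipopolysaccharide, and EPDR1 a secreted ependymin-related protein. Each protein was given at 1 µg per g of body weight in 3 injections at intervals of 1 day. Age and sex are not given in the sources used here, and the labels do not say whether each library came from a separate animal, so p-values measure the spread between these libraries, which may be partly technical.

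The sinusoids of the liver are lined by a thin, perforated endothelium without a continuous basement membrane. These cells clear hyaluronan, modified proteins and immune complexes from the blood through endocytic receptors, among them the stabilins and the mannose receptor, and they respond to vascular endothelial growth factor, angiopoietins and bone morphogenetic proteins through receptors shared with other endothelia. The 10 genes are therefore described in 2 classes, the endocytic and lectin receptors (Stab1, Stab2, Mrc1, Lyve1 and Clec4g) and the signalling receptors and their phosphatase (Kdr, Tek, Eng and Ptprb), with Oit3, which encodes a zona pellucida domain protein, beside them. Mrc1 is also made by macrophages, Lyve1 by lymphatic endothelium, and Kdr, Tek, Eng and Ptprb by endothelium of most organs.

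Promoter sequences from RefSeq (GRCm38.p6, the sense strand of each gene) were at hand for 7 of the 10 genes, and Lyve1, Oit3 and Ptprb are named only. The letters GGAAG, the core that ETS factors of endothelium bind, AGATAA, bound by GATA factors, and TGCTGA, bound by MAF factors, were searched on both strands (CTTCC for ETS, TTATCT for GATA and TCAGCA for MAF on the other strand) in the 250 bases before each start. These 4 promoters are shown because Stab2, Stab1 and Kdr are among the genes with the highest fold changes below, and Clec4g did not pass the same test. Capitals mark the matches; bases inside the annotated gene were left out. The 4 stretches lie on the minus strand at chr10:87008026-87008192 (Stab2), chr14:31168642-31168891 (Stab1), chr5:75978459-75978705 (Kdr) and chr8:3720652-3720901 (Clec4g).
Stab2: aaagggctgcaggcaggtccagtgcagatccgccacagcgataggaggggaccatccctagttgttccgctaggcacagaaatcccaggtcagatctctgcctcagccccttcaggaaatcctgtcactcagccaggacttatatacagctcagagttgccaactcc
Stab1: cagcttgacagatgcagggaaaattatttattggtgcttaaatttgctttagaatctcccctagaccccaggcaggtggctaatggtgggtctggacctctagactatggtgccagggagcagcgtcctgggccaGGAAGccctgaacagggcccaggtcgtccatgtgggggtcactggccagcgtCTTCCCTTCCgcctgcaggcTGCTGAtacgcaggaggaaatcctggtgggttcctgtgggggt
Kdr: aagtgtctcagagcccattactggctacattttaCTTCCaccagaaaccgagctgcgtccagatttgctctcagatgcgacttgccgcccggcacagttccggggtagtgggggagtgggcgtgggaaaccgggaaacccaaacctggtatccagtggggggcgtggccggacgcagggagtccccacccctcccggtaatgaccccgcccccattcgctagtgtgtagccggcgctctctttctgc
Clec4g: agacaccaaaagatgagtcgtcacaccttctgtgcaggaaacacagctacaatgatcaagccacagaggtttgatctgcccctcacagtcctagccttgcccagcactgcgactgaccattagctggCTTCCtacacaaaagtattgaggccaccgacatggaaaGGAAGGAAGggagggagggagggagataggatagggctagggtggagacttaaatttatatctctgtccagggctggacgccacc
GGAAG or CTTCC occurred 3 times before Stab1, 3 times before Clec4g (with 1 overlapping pair) and 1 time before Kdr. The 1 match before Stab2 lies inside the annotated gene and so outside the 167 bases printed. Of the promoters not shown, Mrc1 held 3 matches, Eng 2 and Tek 0. TGCTGA was found 1 time each before Stab1 and Tek, and AGATAA before none of the 7 genes. GGAAG or its complement was present in 64.1% of 32851 mouse promoters of this length, AGATAA in 9.99% and TGCTGA in 16.1%. A GGAAG match is thus common, and the Clec4g promoter held as many GGAAG matches as that of Stab1.

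All 10 genes had reads in every library, as did the hepatocyte gene Alb, and levels are given as CPM, the usual read count scaled to the size of the library. Library totals ran from 773499 to 21892416 reads in genes, with a median of 3712802, and the FSTL3 libraries held 9298871 to 10930800. The 4 FSTL3 libraries stood apart from the other 19 in what they were made of. The small nuclear RNA Rn7sk took 5177 to 5654 CPM in them and 1.84 to 17 CPM in the others, mitochondrial protein-coding genes took 1.97 to 2.13% of reads against 4.15 to 13.9%, and the read-weighted mean exon length was 5005 to 5153 bases against 3230 to 4257 bases. The part of these differences in any FSTL3 result was not tested except where exon length is taken out below, and protein and library composition cannot be told apart in this group. LBP replicate 2 also stood apart, with 0.211% of its reads on Alb against 5.26 to 8.36% in the other 22 libraries.

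FSTL3 livers had more RNA of 7 of the 10 marker genes than vehicle livers of the same batch, and none had less. The scavenger receptors Stab2 and Stab1 moved most, followed by the phosphatase gene Ptprb and the receptor genes Kdr and Eng, and Mrc1 and Tek moved least among those that passed the test. Lyve1, Oit3 and Clec4g did not pass it. In bulk liver RNA, more cells of a type and more RNA per cell cannot be told apart, here and in every comparison that follows. Of all 11969 genes tested, 39.2% passed the same threshold in this comparison (edgeR quasi-likelihood test, adjusted p below 0.05), 23.2% as higher and 16% as lower in FSTL3 livers. The median log2 fold change was 1.05 over the 10 marker genes and 0.06 over all genes tested.

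Stab2 encodes stabilin-2, the main hyaluronan clearance receptor of the sinusoid. Its level was 112, 108, 114 and 103 CPM in the FSTL3 libraries, against 27.9, 21.3, 19.9 and 23.9 CPM in the vehicle libraries of batch 2. All 4 FSTL3 values lay close together and far above every other library of the study, the highest of which was 56.0 CPM in a batch 1 vehicle liver. The log2 fold change was 2.23 ± 0.26 (SE; edgeR adjusted p = 5.92e-07). Stab1, the paralogue stabilin-1, which takes up modified lipoproteins and matrix fragments, had 64.4, 58.1, 61.4 and 63.8 CPM in FSTL3 livers, against 13.4, 15.9, 14.1 and 18.4 CPM in vehicle livers. The groups did not overlap, and the log2 fold change was 2.00 ± 0.21 (SE; edgeR adjusted p = 2.35e-07). Within a library the 2 stabilins kept a similar proportion in both groups, with 0.537 to 0.62 Stab1 reads per Stab2 read in FSTL3 livers and 0.482 to 0.768 in vehicle livers.

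Mrc1, the mannose receptor, had 97.1, 78.8, 91.0 and 94.2 CPM in FSTL3 livers, against 51.3, 38.5, 38.2 and 54.8 CPM in vehicle livers of batch 2. The FSTL3 values were all higher, but the test was near its threshold, with a log2 fold change of 0.98 ± 0.36 (SE; edgeR adjusted p = 0.034). That call was lost when any single FSTL3 library, or vehicle replicate 1, 2 or 3, was left out, with log2 fold changes of 0.91 to 1.05 and edgeR adjusted p of 0.0519 to 0.0958. Macrophages also make Mrc1. The 14 Kupffer cell genes summed to 203 to 224 CPM in FSTL3 livers and 227 to 550 CPM in vehicle livers of batch 2. Of the 13 tested, 5 fell and none rose in FSTL3 livers, with a median log2 fold change of -0.92. Of all genes, 16% fell in this comparison. By exon length, 43.7% fell under 1500 bases, 28% from 1500 to 3000, 15% from 3000 to 5000 and 4.76% from 5000 up. The part of exon length in the Kupffer cell values was not tested.

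Lyve1, a hyaluronan receptor, varied widely inside groups. It had 12.1, 5.13, 14 and 21.3 CPM in FSTL3 livers, against 7.47, 6.05, 7.47 and 8.68 CPM in vehicle livers, so the FSTL3 values reached both below and above the vehicle values. The log2 fold change of 0.86 ± 0.44 (SE; edgeR adjusted p = 0.128) did not pass. Clec4g, the lectin LSECtin, had 31.3, 28.8, 26.7 and 25 CPM in FSTL3 livers, against 35.6, 28.9, 24.9 and 29.5 CPM in vehicle livers. The groups overlapped over most of their range and the log2 fold change was -0.09 ± 0.17 (SE; edgeR adjusted p = 0.709). Within a library, Stab2 gave 3.56 to 4.28 reads per Clec4g read in FSTL3 livers and 0.74 to 0.812 in vehicle livers. The 2 genes thus changed unequally in reads whatever the scaling of the libraries, but the ratio is not corrected for exon length. Stab2 has 8757 bases of exon and Clec4g 2462. With the trend on exon length removed, as described below, the log2 fold changes were 1.72 for Stab2 and 0.23 for Clec4g. Oit3 had 32.2, 22.2, 29.3 and 27.8 CPM in FSTL3 livers, against 21.7, 13.8, 12.9 and 19.1 CPM in vehicle livers. Its groups did not overlap, but the log2 fold change of 0.73 ± 0.32 (SE; edgeR adjusted p = 0.076) did not pass, and the call depended on the fit. Without LBP replicate 2, which is in neither group but adds to the estimate of spread, Oit3 passed at 0.74 (edgeR adjusted p = 0.00124), in a fit that called 56.8% of all genes. It also passed with DESeq2 (0.73, adjusted p = 0.0347), with the 2 groups alone (0.67, edgeR adjusted p = 0.00225) and with the replicate block (0.73, edgeR adjusted p = 0.0356).

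Ptprb encodes the endothelial receptor tyrosine phosphatase VE-PTP, which removes phosphate from the angiopoietin receptor and from VE-cadherin complexes. It had 238, 175, 236 and 237 CPM in FSTL3 livers, against 61.5, 69.0, 57.7 and 75.7 CPM in vehicle livers. FSTL3 replicate 2 lay below the other 3 FSTL3 libraries and still far above all vehicle libraries, and the log2 fold change was 1.75 ± 0.23 (SE; edgeR adjusted p = 2.57e-06). Kdr, the main receptor for vascular endothelial growth factor, had 86.7, 74.0, 83.0 and 79.2 CPM in FSTL3 livers, against 34.6, 29.8, 28.2 and 32.3 CPM in vehicle livers. These groups were far apart relative to their spread, and the log2 fold change was 1.37 ± 0.22 (SE; edgeR adjusted p = 3.46e-05).

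Eng, the co-receptor endoglin for bone morphogenetic proteins, had 46.3, 33.4, 41.6 and 39.5 CPM in FSTL3 livers, against 23.4, 20.1, 15.4 and 14.6 CPM in vehicle livers. Its groups did not overlap and the log2 fold change was 1.11 ± 0.26 (SE; edgeR adjusted p = 0.00181). Tek, the angiopoietin receptor Tie2, had 20, 19.3, 19.3 and 19.8 CPM in FSTL3 livers, against 13.7, 11.4, 12.5 and 8.33 CPM in vehicle livers. The FSTL3 values were nearly equal to each other and all above the vehicle values, with a log2 fold change of 0.77 ± 0.23 (SE; edgeR adjusted p = 0.0107). There were 9.08 to 12.3 Ptprb reads per Tek read in FSTL3 livers and 4.49 to 9.08 in vehicle livers. Ptprb is the longer gene, with 13333 bases of exon beside 4712 for Tek. With the trend on exon length removed, as described below, the log2 fold changes were 0.88 for Ptprb and 0.71 for Tek. In all, 8 of the 10 genes had every FSTL3 library above every vehicle library of batch 2, a pattern that 29.9% of all genes tested showed.

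**Figure D1:**
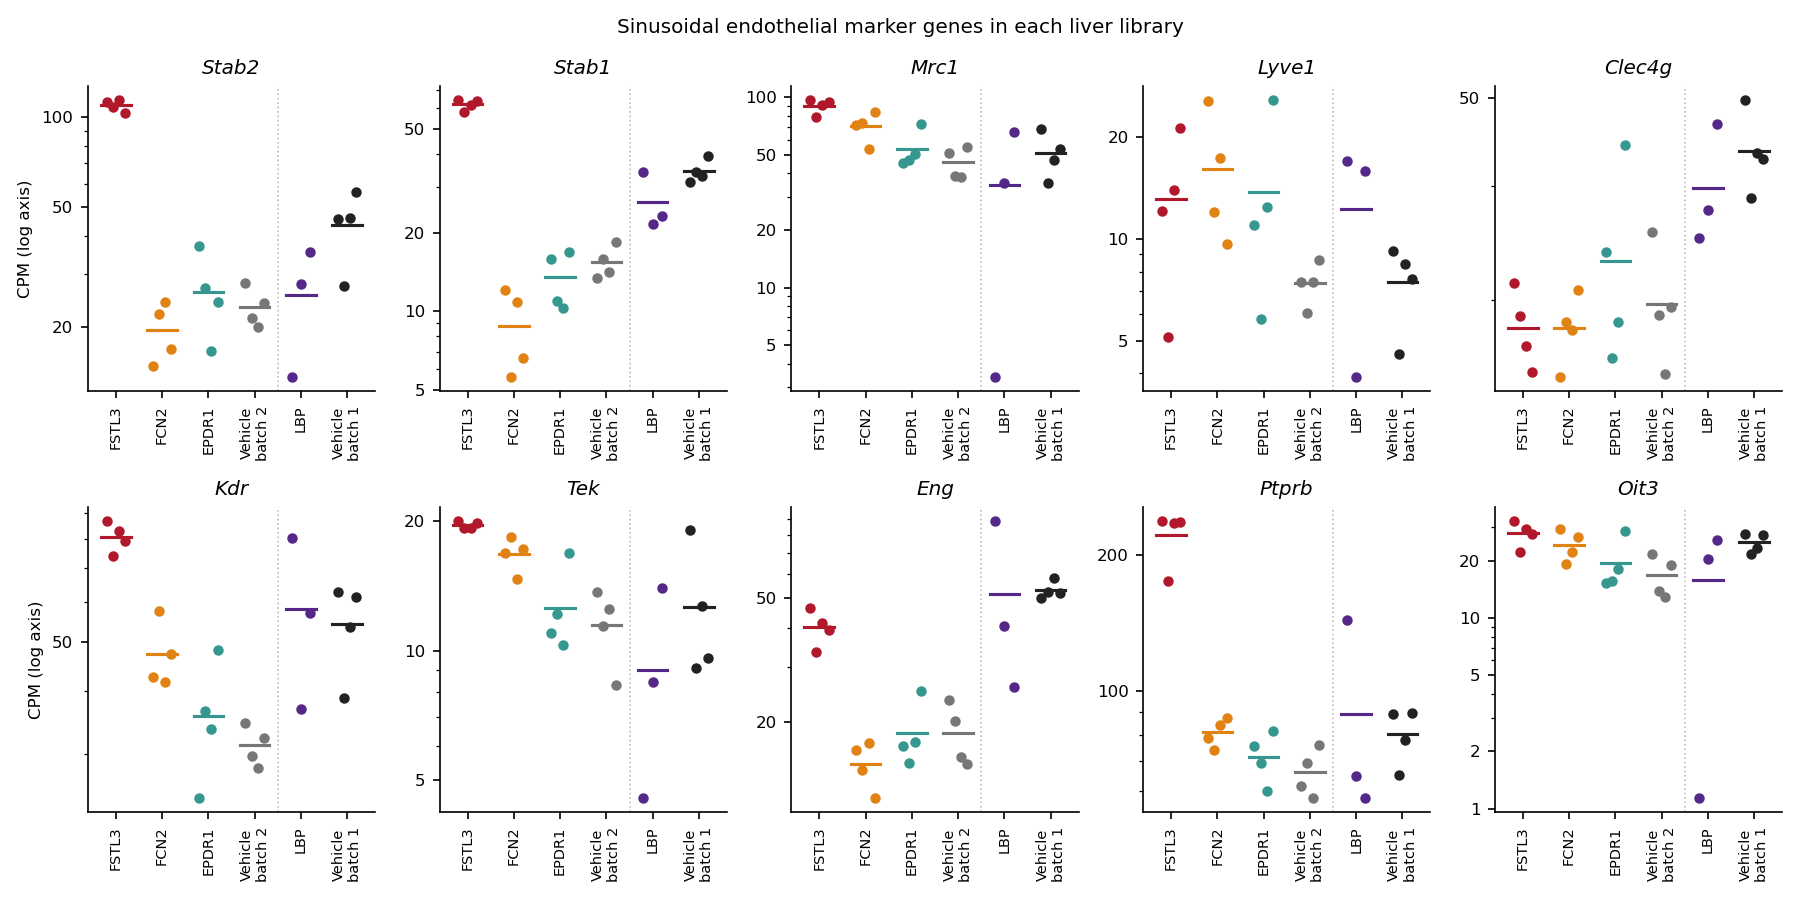
Level of each of the 10 genes in CPM (log axis) in the 23 libraries, by group; points are libraries and lines are group means. The 4 FSTL3 libraries lie above all other libraries for Stab2, where they reach 103 to 114 CPM, and among the others for Clec4g, at 25 to 31.3 CPM.

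Because the FSTL3 libraries held more reads on long genes, exon length was examined beside the fold changes of the marker genes. Over all genes tested, the median log2 fold change of FSTL3 over vehicle of batch 2 was -0.75 for genes under 1500 bases of exon, -0.35 from 1500 to 3000 bases, -0.04 from 3000 to 5000 bases and 0.44 from 5000 bases up. The marker genes followed the same order. The 3 shortest, Clec4g (2462 bases), Oit3 (2788 bases) and Lyve1 (2919 bases), are those that did not pass the test, with a median of 0.73. Eng (4048 bases) and Tek (4712 bases) had a median of 0.94, and the 5 longest, Mrc1 (6371 bases), Stab2 (8757 bases), Kdr (9030 bases), Stab1 (10288 bases) and Ptprb (13333 bases), a median of 1.75. In each class the median of the marker genes lay above the median of all genes of that length, and 37.5% of all genes in the longest class passed as higher.

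Taking out a smooth trend of the log2 ratio on exon length brought the medians of all genes in the 4 classes to between -0.02 and 0.02. The marker genes then had medians of 0.98, 0.93 and 0.88 from short to long. Stab2 stayed highest at 1.72, with Stab1 at 1.36, Eng at 1.15, Ptprb at 0.88, Kdr at 0.84 and Tek at 0.71, all past the edgeR threshold. In 2 cases the call changed: Oit3 passed, at 0.98, and Mrc1 no longer did, at 0.72. Lyve1 at 1.09 did not pass, and neither did Clec4g, whose sign turned to 0.23. Of all genes, 27.1% passed in this fit, 14.9% as higher and 12.2% as lower. The order among the higher genes depended on the trend: Ptprb, at 1.75 with it, stood below Eng and Oit3 without it.

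**Figure D2:**
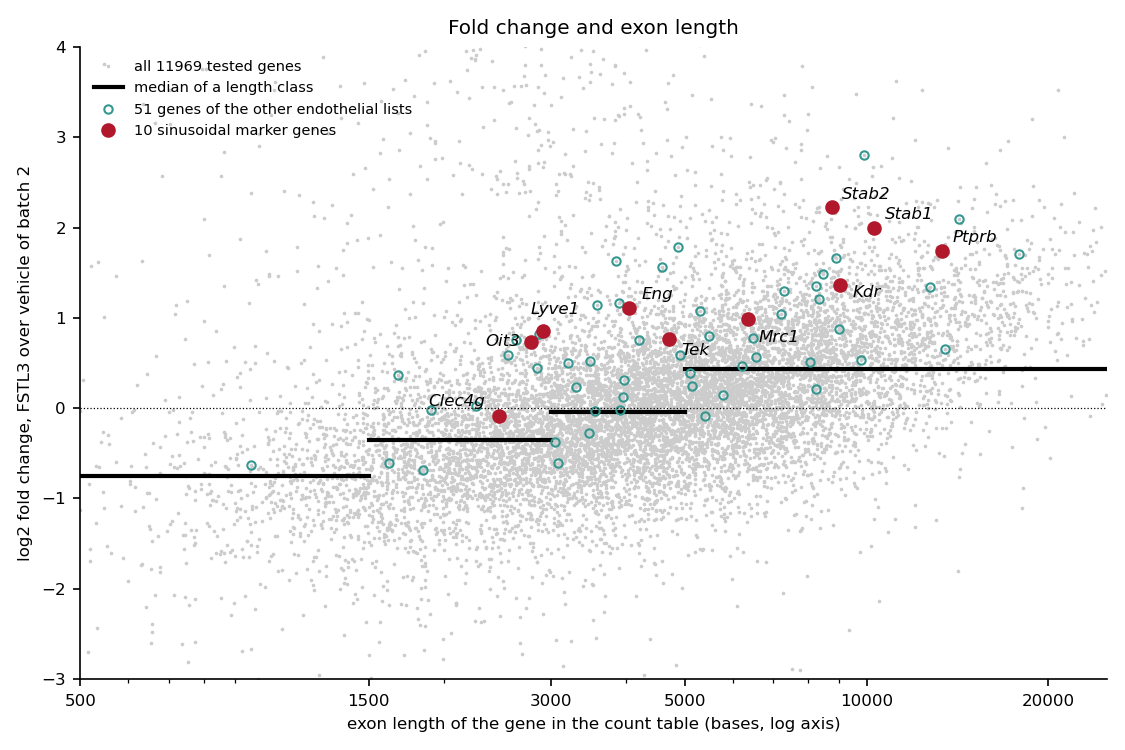
Log2 fold change of FSTL3 over vehicle of batch 2 against exon length in bases (log axis) for the 11969 genes tested (grey, 484 of them outside the range drawn), the 51 other endothelial genes tested and the 10 marker genes; black marks are medians of the length classes. The medians of all genes run from -0.75 in the shortest class to 0.44 in the longest, and Stab2 at 2.23 and Stab1 at 2.00 lie above the median of their length class.

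Set against the vehicle of batch 1, a group of other libraries from another batch, fewer marker genes passed. Ptprb, Stab2 and Stab1 were higher in FSTL3 livers and Clec4g was lower, while the other 6 genes did not pass. Over all genes, 31.9% passed in this comparison, 18.7% as higher and 13.2% as lower. The median log2 fold change was 0.67 over the marker genes and 0.02 over all genes. The comparison crosses batches, so protein and batch cannot be told apart in it.

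Ptprb, at 175 to 238 CPM in FSTL3 livers, had 88.7, 65.1, 77.8 and 89.5 CPM in the batch 1 vehicle livers. All 4 FSTL3 values lay well above these, and the log2 fold change was 1.46 ± 0.22 (SE; edgeR adjusted p = 3.14e-05). Stab2, at 103 to 114 CPM in FSTL3 livers, had 45.6, 27.4, 46.0 and 56.0 CPM in those vehicle livers, again with no overlap, for a log2 fold change of 1.29 ± 0.25 (SE; edgeR adjusted p = 0.000344). Stab1, at 58.1 to 64.4 CPM in FSTL3 livers, had 31.1, 34.2, 32.9 and 39.4 CPM there. These lay between its FSTL3 values and those of the other vehicle, and the log2 fold change was 0.85 ± 0.21 (SE; edgeR adjusted p = 0.0029). Clec4g, the 1 gene called lower, had 25 to 31.3 CPM in FSTL3 livers, against 49.8, 38.8, 43.5 and 42.9 CPM in batch 1 vehicle livers. Its FSTL3 values were all below these, and its log2 fold change was -0.65 ± 0.17 (SE; edgeR adjusted p = 0.00513), a call lost without the filter on low counts (-0.62, edgeR adjusted p = 0.0578). Eng took the opposite sign to its change within batch 2. It had 33.4 to 46.3 CPM in FSTL3 livers, against 50.2, 52.5, 58.1 and 51.9 CPM in batch 1 vehicle livers, with no overlap and a log2 fold change of -0.41 ± 0.26 (SE; edgeR adjusted p = 0.24) that did not pass. Kdr, with 74.0 to 86.7 CPM in FSTL3 livers and 62.9, 38.8, 53.5 and 61.5 CPM in batch 1 vehicle livers, had no overlap either, and its log2 fold change of 0.56 ± 0.22 (SE; edgeR adjusted p = 0.0514) just missed the threshold. Tek at 0.60 (edgeR adjusted p = 0.0559), Mrc1 at 0.81 (0.0943), Lyve1 at 0.74 (0.225) and Oit3 at 0.15 (0.771) did not pass. Without LBP replicate 2 in the fit, Kdr, Mrc1 and Tek passed as higher at 0.54, 0.79 and 0.59, and Eng as lower at -0.41, with edgeR adjusted p of 0.00148 to 0.0332, in a fit that called 49.9% of all genes. The same 4 genes passed with the 2 groups alone, in a fit that called 57.9% of all genes. Tek and Kdr also depended on the method: Tek passed with DESeq2 (adjusted p = 0.0152), limma-voom (0.0335), DESeq2 size factors in edgeR (0.0436) and a filter of 5 CPM (edgeR adjusted p = 0.0473), and Kdr with DESeq2 (0.0403). Tek passed as well without vehicle replicate 1 of batch 1, at 0.85 (edgeR adjusted p = 0.0122). In this comparison 6 marker genes had every FSTL3 library above every vehicle library and 2 below, patterns that 27.7% and 23.5% of all genes tested showed.

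With the length trend removed, 1 call was left against the batch 1 vehicle, Stab2 at 0.88. Ptprb at 0.68, Stab1 at 0.30, Kdr at 0.12 and Clec4g at -0.39 then did not pass, where 23.5% of all genes did. This rested on LBP replicate 2: with the trend removed and that library left out, Stab2 at 0.85, Ptprb at 0.67, Mrc1 at 0.60 and Tek at 0.58 passed as higher and Clec4g at -0.42 as lower, with edgeR adjusted p of 0.000109 to 0.0225 and 42.0% of all genes called.

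**Figure D3:**
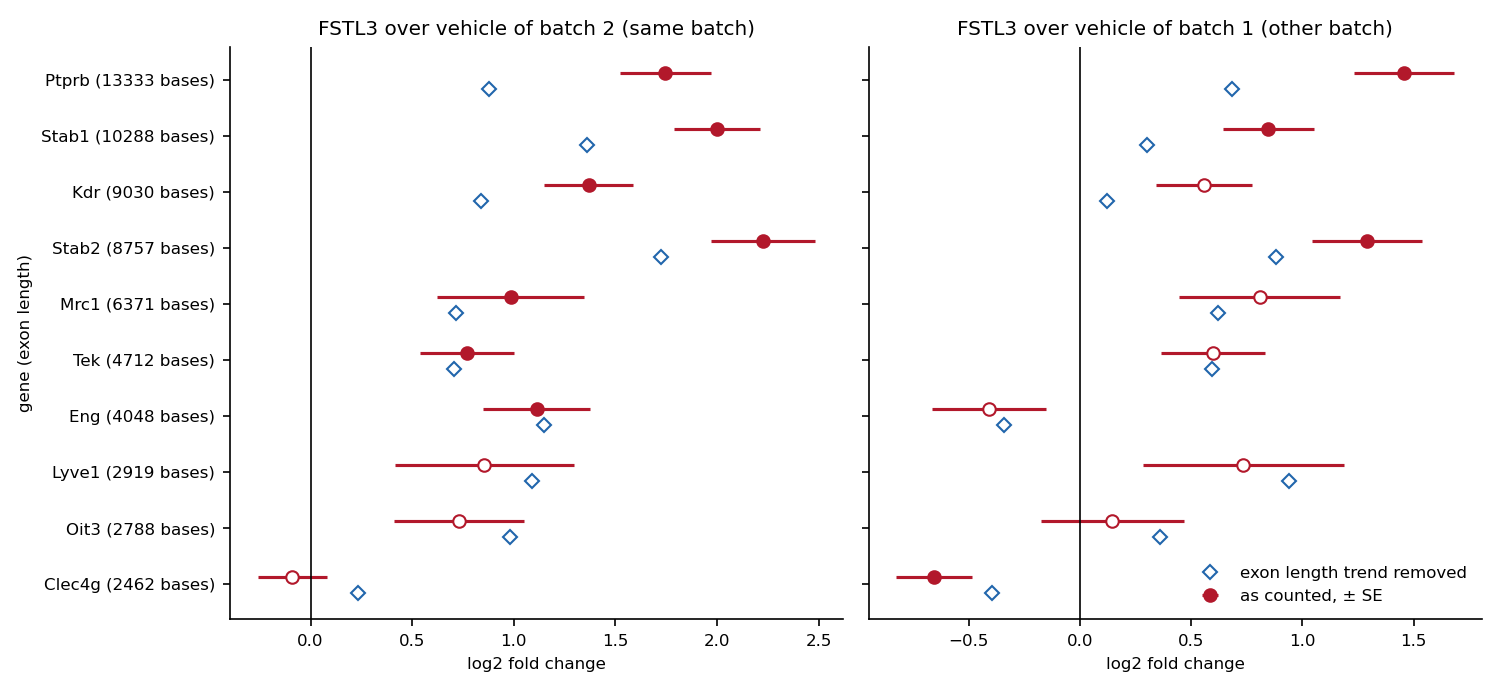
Log2 fold change (with SE bars) of FSTL3 over the vehicle of batch 2 and over the vehicle of batch 1 for the 10 genes, ordered by exon length; filled points passed the edgeR test and diamonds show the value with the exon length trend removed. Stab2 is at 2.23 and 1.29 and Clec4g at -0.09 and -0.65.

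The vehicle of batch 2 was then compared with the vehicle of batch 1, with no protein in either group. Of the 10 genes, 5 were lower in the batch 2 vehicle and 0 were higher, where 12.2% of all genes passed, 5.41% as higher and 6.76% as lower. Without LBP replicate 2, 30.3% of all genes passed. Eng had a log2 fold change of -1.52 ± 0.27 (SE; edgeR adjusted p = 0.0011), Stab1 of -1.15 ± 0.22 (0.00172), Stab2 of -0.94 ± 0.25 (0.0188), Kdr of -0.81 ± 0.22 (0.0194) and Clec4g of -0.56 ± 0.17 (0.0361). For Eng, Stab1, Kdr and Clec4g, and for Oit3, which did not pass, all batch 2 vehicle values lay below all batch 1 vehicle values, as for 15.8% of all genes tested. For Stab2 the groups overlapped through the batch 1 library at 27.4 CPM. On the log2 scale the difference of -1.52 between the vehicles for Eng was larger in size than its FSTL3 change of 1.11 within batch 2, whereas for Stab2 the vehicles differed by -0.94 beside an FSTL3 change of 2.23. Oit3 at -0.58, Ptprb at -0.29, Mrc1 at -0.18, Tek at -0.17 and Lyve1 at -0.12 did not pass. The calls of Stab2, Kdr and Clec4g were near the threshold and were lost on leaving out any 1 of several libraries. That of Stab2 was lost without batch 1 replicate 3 or 4 or batch 2 replicate 2 or 3 (-0.92 to -0.80, edgeR adjusted p 0.0505 to 0.0742), and that of Kdr without batch 1 replicate 1 or 4 or batch 2 replicate 2 or 3 (-0.79 to -0.74, edgeR adjusted p 0.0542 to 0.0627) or with the length trend removed (-0.72, edgeR adjusted p = 0.0908). That of Clec4g was lost without batch 1 replicate 1, 3 or 4 or batch 2 replicate 2, 3 or 4 (-0.58 to -0.49, edgeR adjusted p 0.071 to 0.113). Oit3 passed without LBP replicate 2, at -0.60 (edgeR adjusted p = 0.0239). The read-weighted mean exon length was 3626 to 3972 bases in batch 2 vehicle livers and 4151 to 4257 bases in batch 1 vehicle livers, and the 3 marker genes under 3000 bases had a median log2 fold change of -0.56, where all genes from 1500 to 3000 bases had 0.07. Batch, and whatever else separates these vehicles, cannot be told apart here.

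Within batch 2, the FSTL3 livers could also be set against the 2 other protein groups. These comparisons share the FSTL3 libraries with each other and with those above. Stab1, Stab2, Ptprb, Kdr and Eng were higher in FSTL3 livers than in both, and Tek also than in EPDR1 livers. No marker gene was lower. Of all genes, 44.3% passed against FCN2 (25.9% higher, 18.4% lower) and 42.0% against EPDR1 (24% higher, 18% lower), and the median log2 fold changes of the marker genes were 0.57 and 0.94 beside 0.10 and 0.08 for all genes.

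Stab1 had 58.1 to 64.4 CPM in FSTL3 livers, against 12, 5.60, 10.8 and 6.59 CPM in FCN2 livers and 15.9, 10.9, 10.3 and 16.9 CPM in EPDR1 livers. The FSTL3 values were far above both groups. Its log2 fold change of FSTL3 was 2.79 ± 0.22 (SE; edgeR adjusted p = 5.51e-09) over FCN2 and 2.19 ± 0.22 (SE; edgeR adjusted p = 1.08e-07) over EPDR1. Stab2 had 103 to 114 CPM in FSTL3 livers, against 14.8, 22, 24.2 and 16.9 CPM in FCN2 livers and 37.1, 26.9, 16.6 and 24.1 CPM in EPDR1 livers. Here too no library came near the FSTL3 group, and the log2 fold changes were 2.50 ± 0.26 (SE; edgeR adjusted p = 1.67e-07) and 2.05 ± 0.25 (SE; edgeR adjusted p = 1.89e-06). Ptprb gave 1.45 and 1.63, Kdr 0.78 and 1.18, and Eng 1.45 and 1.13 over FCN2 and EPDR1, with edgeR adjusted p between 6.51e-06 and 0.00562. Tek was at 0.64 over EPDR1 (edgeR adjusted p = 0.0294) and at 0.23 over FCN2, where it did not pass. Its call over EPDR1 was lost on leaving out any FSTL3 library or EPDR1 replicate 1, 2 or 3, with log2 fold changes of 0.56 to 0.64 and edgeR adjusted p of 0.0546 to 0.0911. Without LBP replicate 2, Mrc1 at 0.75 and Oit3 at 0.53 also passed over EPDR1 (edgeR adjusted p = 0.00167 and 0.0163), in a fit that called 58.6% of all genes. With the length trend removed, Stab2, Stab1, Eng and Ptprb still passed over both groups, at 2.04, 2.21, 1.44 and 0.68 over FCN2 and 1.55, 1.57, 1.14 and 0.80 over EPDR1. Kdr then did not, at 0.30 over FCN2 (edgeR adjusted p = 0.385) and 0.65 over EPDR1 (edgeR adjusted p = 0.069), nor did Tek over EPDR1, at 0.56 (edgeR adjusted p = 0.0538). That fit called 36.1% of all genes over FCN2 and 30.3% over EPDR1. All FSTL3 libraries lay above all FCN2 libraries for 6 of the 10 genes and above all EPDR1 libraries for 7, patterns that 31.5% and 29.9% of all genes tested showed. Clec4g stood at 0.00 and -0.25 and Lyve1 at -0.32 and -0.06, none of them past the threshold, and the sign of each turned under other settings.

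FCN2 livers gave no called marker gene against their vehicle. The values nearest to a call were a lower Stab1 and a higher Lyve1, Kdr and Tek. With edgeR, 0 of the 10 passed, where 0.810% of all genes did (0.159% higher, 0.652% lower). DESeq2 called Stab1 and limma-voom none of the 10, where they called 7.68% and 1.07% of all genes. An unadjusted edgeR p below 0.05 was found for 4 of the 10, and for 2069 of the 11969 genes tested. Stab1 had a log2 fold change of -0.79 ± 0.22 (SE; edgeR adjusted p = 0.0824), with all 4 FCN2 values, 12, 5.60, 10.8 and 6.59 CPM, below all vehicle values of 13.4 to 18.4 CPM. Kdr, with 42.6, 57.6, 41.6 and 47.3 CPM in FCN2 livers, was above every vehicle library of batch 2, at 0.59 ± 0.22 (SE; edgeR adjusted p = 0.166). Tek, with 16.9, 18.4, 14.7 and 17.2 CPM, was also above all of them, at 0.54 ± 0.24 (SE; edgeR adjusted p = 0.244). Lyve1, with 25.6, 12, 17.3 and 9.65 CPM, was higher in every FCN2 library than in any vehicle library, at 1.17 ± 0.45 (SE; edgeR adjusted p = 0.18). Thus 3 genes lay wholly above the vehicle and 1 wholly below, where 9.12% and 9.48% of all genes did so. Stab2, at -0.27, did not pass. These calls turned on 1 library of another group: without LBP replicate 2 in the fit, Kdr at 0.59, Mrc1 at 0.63 and Oit3 at 0.57 passed as higher and Stab1 at -0.77 as lower, with edgeR adjusted p of 0.00727 to 0.0413, in a fit that called 18.9% of all genes.

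EPDR1 livers also gave no called marker gene against their vehicle. No marker gene passed with edgeR, DESeq2 or limma-voom, none had an unadjusted p below 0.05 with edgeR, and 0.00% of all genes passed, with 493 genes at an unadjusted p below 0.05. The log2 fold changes ran from -0.19 for Stab1 to 0.91 ± 0.46 (SE) for Lyve1, which had 11, 5.77, 12.4 and 25.8 CPM in EPDR1 livers. For every one of the 10 genes the EPDR1 and vehicle libraries overlapped, where 2.31% of all genes had every EPDR1 value above and 1.91% every EPDR1 value below the vehicle values. Stab2, with 37.1, 26.9, 16.6 and 24.1 CPM, spread more widely in EPDR1 livers than in vehicle livers and covered their whole range.

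LBP livers likewise gave no called marker gene against the batch 1 vehicle. With edgeR 0 of 10 passed, where 7.70% of all genes did (6.73% higher, 0.969% lower). Without LBP replicate 2 that share of all genes was 0.727%. DESeq2 and limma-voom called no marker gene, where they called 9.4% and 0.0251% of all genes. An unadjusted edgeR p below 0.05 was found for 1 of the 10, Stab2, and for 2725 of the 11969 genes tested. Stab2 had 13.6, 27.7 and 35.5 CPM in LBP livers, overlapping the vehicle range of 27.4 to 56.0 CPM, with a log2 fold change of -0.73 ± 0.28 (SE; edgeR adjusted p = 0.114). The other 9 genes overlapped too, where 4.62% of all genes had every LBP value above and 6.23% every LBP value below the vehicle values. It passed when LBP replicate 4 was left out, at -1.04 (edgeR adjusted p = 0.0313). LBP replicate 2, the library with few Alb reads, split the marker genes. Within the LBP group it had the highest values for Eng (88.4 CPM), Kdr (80.4 CPM), Ptprb (144 CPM) and Stab1 (34.0 CPM) and the lowest for Mrc1 (3.40 CPM, 3 reads), Oit3 (1.13 CPM, 1 read), Tek (4.53 CPM, 4 reads) and Stab2 (13.6 CPM, 12 reads). In the same library the 14 Kupffer cell genes summed to 1491 CPM, the 7 pancreatic acinar genes to 1135 CPM and the 13 hepatocyte genes to 35980 CPM, while the other 22 libraries had 90769 CPM or more of the hepatocyte genes.

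**Figure D4:**
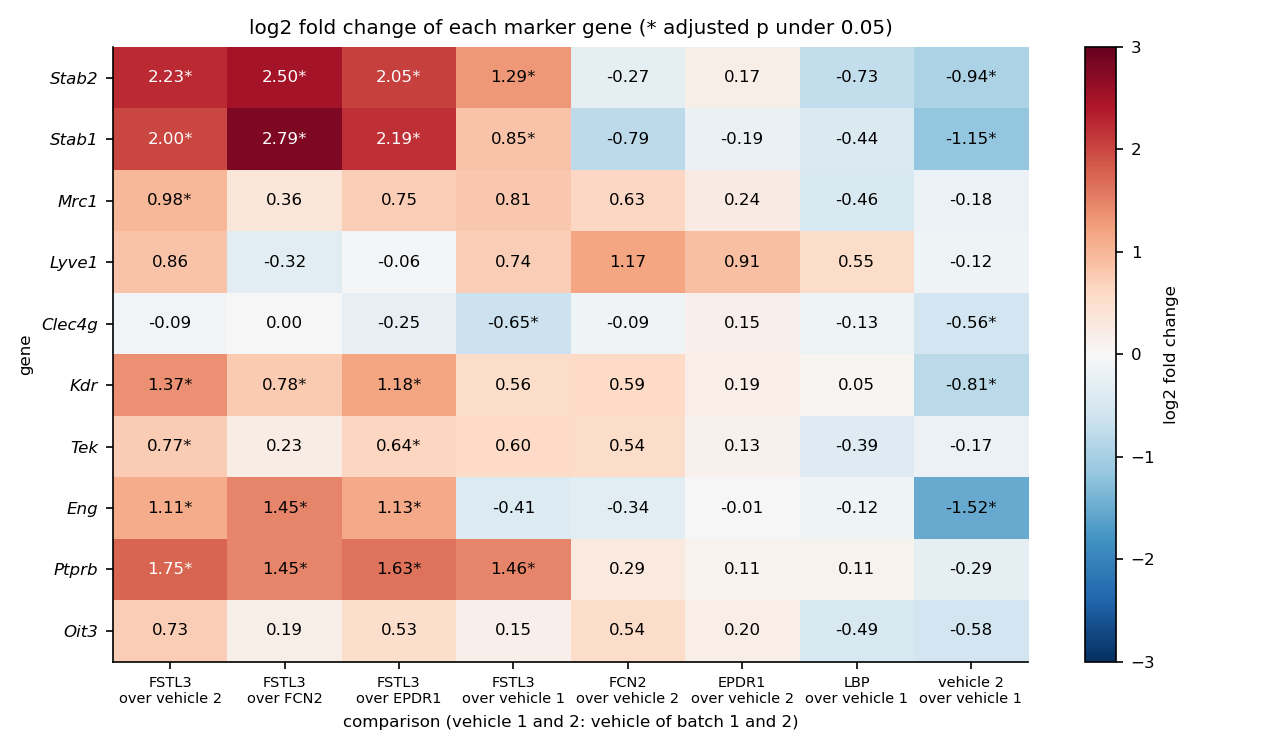
Log2 fold changes of the 10 genes in the 8 comparisons, with asterisks where the edgeR adjusted p was below 0.05. The comparisons with FSTL3 hold 4 to 7 asterisks each, the batch 2 over batch 1 vehicle comparison holds 5, all lower, and the FCN2, EPDR1 and LBP comparisons with vehicle hold none.

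Across the 6 groups, Stab1, Stab2 and Ptprb had their FSTL3 values clear of the next group, and the other genes did not order the groups so plainly. Stab1 averaged 61.9 CPM in FSTL3 livers, 34.4 in batch 1 vehicle livers, 26.2 in LBP, 15.5 in batch 2 vehicle, 13.5 in EPDR1 and 8.74 in FCN2 livers, and its gaps below FSTL3 and below LBP were the 2 without overlap. Stab2 averaged 109 CPM in FSTL3 livers and 43.7 CPM in batch 1 vehicle livers, and below that all neighbours overlapped. Ptprb averaged 222 CPM in FSTL3 livers and 88.8 CPM in LBP livers, the next group, a place that LBP owed to replicate 2 at 144 CPM, since its other libraries had 64.8 and 57.8 CPM. Eng separated the groups differently, with 53.2 CPM in batch 1 vehicle, 51.6 in LBP and 40.2 in FSTL3 livers set above the remaining 3 groups, whose highest mean was 18.5 CPM. Lyve1, Clec4g, Oit3, Kdr and Mrc1 had no gap between neighbouring groups, in the case of Kdr because LBP replicate 2 reached 80.4 CPM where the lowest FSTL3 library had 74.0, and Tek had 1, between FSTL3 at 19.6 CPM and FCN2 at 16.8 CPM.

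Levels were compared between genes per kilobase of exon. In batch 2 vehicle livers Clec4g was the most abundant of the 10, at 12.1 CPM per kb, followed by Mrc1 at 7.17 and Oit3 at 6.05, and Stab1 was the least abundant at 1.5. Batch 1 vehicle livers also had Clec4g first, at 17.8 CPM per kb, with Eng second at 13.1. In FSTL3 livers Ptprb came first at 16.6 CPM per kb, then Mrc1 at 14.2, Stab2 at 12.5 and Clec4g at 11.4, and Tek came last at 4.16. Stab2 thus ranked 3 of 10 per kilobase in FSTL3 livers and 7 of 10 in both vehicle groups. The FSTL3 libraries held more reads on long genes, and the part of this in the ranks was not tested.

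Other endothelial genes rose in part. The lists of these genes were drawn up with earlier results of the study known. Of 18 other sinusoidal genes 17 were tested, and 7 rose and none fell in FSTL3 livers against the batch 2 vehicle, with a median log2 fold change of 0.25. Of 37 general endothelial genes 34 were tested, and 15 rose and none fell, with a median of 0.62. Of 9 large-vessel genes 2 rose, the coagulation factor carrier Vwf at 0.78 and the arterial ephrin Efnb2 at 1.28, and the 1 lymphatic gene tested did not pass. Vwf is also long, at 16064 bases. These counts stand beside the 23.2% of all genes that rose. By length, 15 of the 24 sinusoidal and general endothelial genes with 5000 bases of exon or more rose, beside 37.5% of all genes of that length. With the length trend removed 4 sinusoidal and 9 general genes passed, and 7 of the 24 long ones, all as higher. In that fit 27.1% of all genes passed, 14.9% as higher and 12.2% as lower. Of all genes with 5000 bases of exon or more, 13.7% passed as higher. F8, coagulation factor VIII, which sinusoidal endothelium makes, averaged 83.4 CPM in FSTL3 livers and 11.8 CPM in vehicle livers, with a log2 fold change of 2.80 ± 0.35 (SE; edgeR adjusted p = 1.47e-06). This log2 fold change was larger than that of Stab2.

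Notch1, a receptor of the Notch family, averaged 27 CPM in FSTL3 livers and 6.11 CPM in vehicle livers, at 2.1 ± 0.33 (SE; edgeR adjusted p = 3.14e-05), and its ligand Dll4 4.71 and 1.43 CPM, at 1.63 ± 0.42 (SE; edgeR adjusted p = 0.00354). Calcrl, the adrenomedullin receptor, had a log2 fold change of 1.79, Adam23 of 1.7, Cyyr1 of 1.66, the adhesion receptor Adgrl4 of 1.56 and the transcription factor Ets1 of 1.48, and all passed the edgeR test. With the length trend removed F8 was at 2.21, Dll4 at 1.71, Calcrl at 1.7, Adgrl4 at 1.52, Notch1 at 1.19, Cyyr1 at 1.15 and Ets1 at 1.00, still past the threshold, whereas Adam23 at 0.58 was not and Vwf turned to -0.24. Against the batch 1 vehicle, 2 of the 17 sinusoidal genes and 8 of the 34 general genes rose, among them F8 at 2.12, Calcrl at 1.45 and Adam23 at 1.15, and 2 general genes fell, where 18.7% of all genes rose and 13.2% fell. With the length trend removed 1 gene of each list was called and Adam23 was at 0.13 (edgeR adjusted p = 0.797). Without LBP replicate 2 there were 5 sinusoidal genes called, 2 of them lower, in a fit that called 49.9% of all genes. The 2 general genes that fell with all libraries were the shear-responsive factor Klf2, at -1.22 (edgeR adjusted p = 0.0128), and the factor Sox18, at -1.20 (edgeR adjusted p = 0.0336). Neither passed with the length trend removed, Klf2 at -0.86 (edgeR adjusted p = 0.097) and Sox18 at -0.83 (0.163). That fit called 23.5% of all genes. When LBP replicate 2 was also left out, Klf2 passed at -0.905 (edgeR adjusted p = 0.0353) but Sox18 at -0.85 (0.0779) did not. This second fit called 42.0% of all genes. The call of Klf2 was also lost without batch 1 vehicle replicate 3 (-1.06, edgeR adjusted p = 0.0725). That of Sox18 was lost without FSTL3 replicate 2, 3 or 4 or batch 1 vehicle replicate 1, 3 or 4 (-1.26 to -1.11, edgeR adjusted p 0.0681 to 0.0898).

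Over FCN2 livers 7 of the 17 sinusoidal, 14 of the 34 general and 2 of the 9 large-vessel genes were higher in FSTL3 livers and 1, 3 and 0 were lower, where 25.9% of all genes were higher and 18.4% lower. Over EPDR1 livers 7, 12 and 3 were higher and 1, 1 and 0 lower, where 24% of all genes were higher and 18% lower. When the length trend was removed, 4 sinusoidal genes were called over EPDR1, beside 30.3% of all genes. Notch1 at 2.92 and 2.62 and F8 at 2.23 and 2.75 led the higher genes over FCN2 and EPDR1. Klf2, at -1.72 and -1.65, and Rspo3, a Wnt enhancer made by central vein endothelium, at -1.10 and -0.96, were lower over both, and the transcription factor Erg was lower over FCN2, at -0.99. The Rspo3 call over EPDR1 was lost without EPDR1 replicate 2 or 4 or FSTL3 replicate 4 (-0.92 to -0.87, edgeR adjusted p 0.0542 to 0.0677). It was also lost with the length trend removed, at -0.77 (edgeR adjusted p = 0.134). When LBP replicate 2 was left out as well, Rspo3 passed at -0.77 (edgeR adjusted p = 0.00325), in a fit that called 49.8% of all genes.

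Between the vehicles, 3 of the 17 sinusoidal, 2 of the 34 general and 2 of the 9 large-vessel genes were lower in the batch 2 vehicle and none was higher, where 6.76% of all genes were lower, so the general list was near the background. Its count was 0 with the length trend removed or without the FSTL3 libraries and 11 without LBP replicate 2, and the sinusoidal count was 0 without the filter on low counts and 6, with 5 of them lower, without LBP replicate 2. The fit without LBP replicate 2 called 30.3% of all genes, 14.9% as higher and 15.4% as lower. Flt4, the receptor for lymphatic growth factors, at -0.92, the semaphorin receptor Plxnd1 at -1.15 and the water channel Aqp1 at -1.03 were among them. The call of Plxnd1 was lost without batch 1 replicate 3 or 4 or batch 2 replicate 2, 3 or 4 (-1.19 to -1.05, edgeR adjusted p 0.0525 to 0.0736), and that of Aqp1 without batch 1 replicate 1, 3 or 4 or batch 2 replicate 2, 3 or 4 (-1.05 to -0.92, edgeR adjusted p 0.0573 to 0.0853). With edgeR, 0 genes of these lists passed in FCN2 or EPDR1 livers against vehicle. For FCN2 this rested on LBP replicate 2, without which 1 sinusoidal and 6 general genes passed, beside 18.9% of all genes. In LBP livers the sinusoidal factor Maf was called at 2.66, with 34.2 to 687 CPM in LBP livers and 30.8 to 49.0 CPM in vehicle livers, and without LBP replicate 2 its log2 fold change was 0.08 (edgeR adjusted p = 0.92). Rspo3 was called at 1.45, and did not pass without that library, at 0.58 (edgeR adjusted p = 0.386), or without any 1 of the vehicle libraries (1.3 to 1.61, edgeR adjusted p 0.0549 to 0.0996).

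Markers of the other liver cells were summed in each library for the same groups. The 13 hepatocyte genes held 113250 to 126364 CPM in FSTL3 livers and 109734 to 124722 CPM in batch 2 vehicle livers, and the 14 stellate cell genes 428 to 537 CPM in FSTL3 livers and 372 to 514 CPM in vehicle livers, so both overlapped. The 10 sinusoidal marker genes summed to 603 to 740 CPM in FSTL3 livers and to 231 to 291 CPM in vehicle livers, with 328 to 452 CPM in the batch 1 vehicle. Of those tested, 1 hepatocyte gene rose and 2 of 13 fell, and 3 stellate cell genes rose and 1 of 14 fell. Bile duct genes summed to 27.8 to 37.1 CPM in FSTL3 livers and 53.3 to 85.1 CPM in vehicle livers, and 2 of the 4 tested fell. Neutrophil genes summed to 1.00 to 1.22 CPM in FSTL3 livers and 3.24 to 17.9 CPM in vehicle livers, and all 3 tested fell. These counts stand beside 23.2% of all genes that rose and 16% that fell in this comparison. No erythroid gene of 3 and no pancreatic acinar gene of 6 passed, and no lymphocyte gene was tested. Among single defining genes, Clec4f of Kupffer cells had 44.3 to 51.3 CPM in FSTL3 livers and 31.3 to 82.9 CPM in batch 2 vehicle livers, and Lrat of stellate cells 16.6 to 33.5 and 15.4 to 31.9 CPM. Krt19 of bile duct cells had 0.362 to 0.608 CPM in FSTL3 livers and 0.415 to 1.68 CPM in vehicle livers. Of all genes under 1500 bases of exon, 43.7% fell, and of those with 5000 bases or more, 37.5% rose. The latter class holds 5 of the 10 sinusoidal marker genes. The part of exon length in these sums and counts was not tested. The part of these other cells in the results for the 10 genes was not tested.

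**Figure D5:**
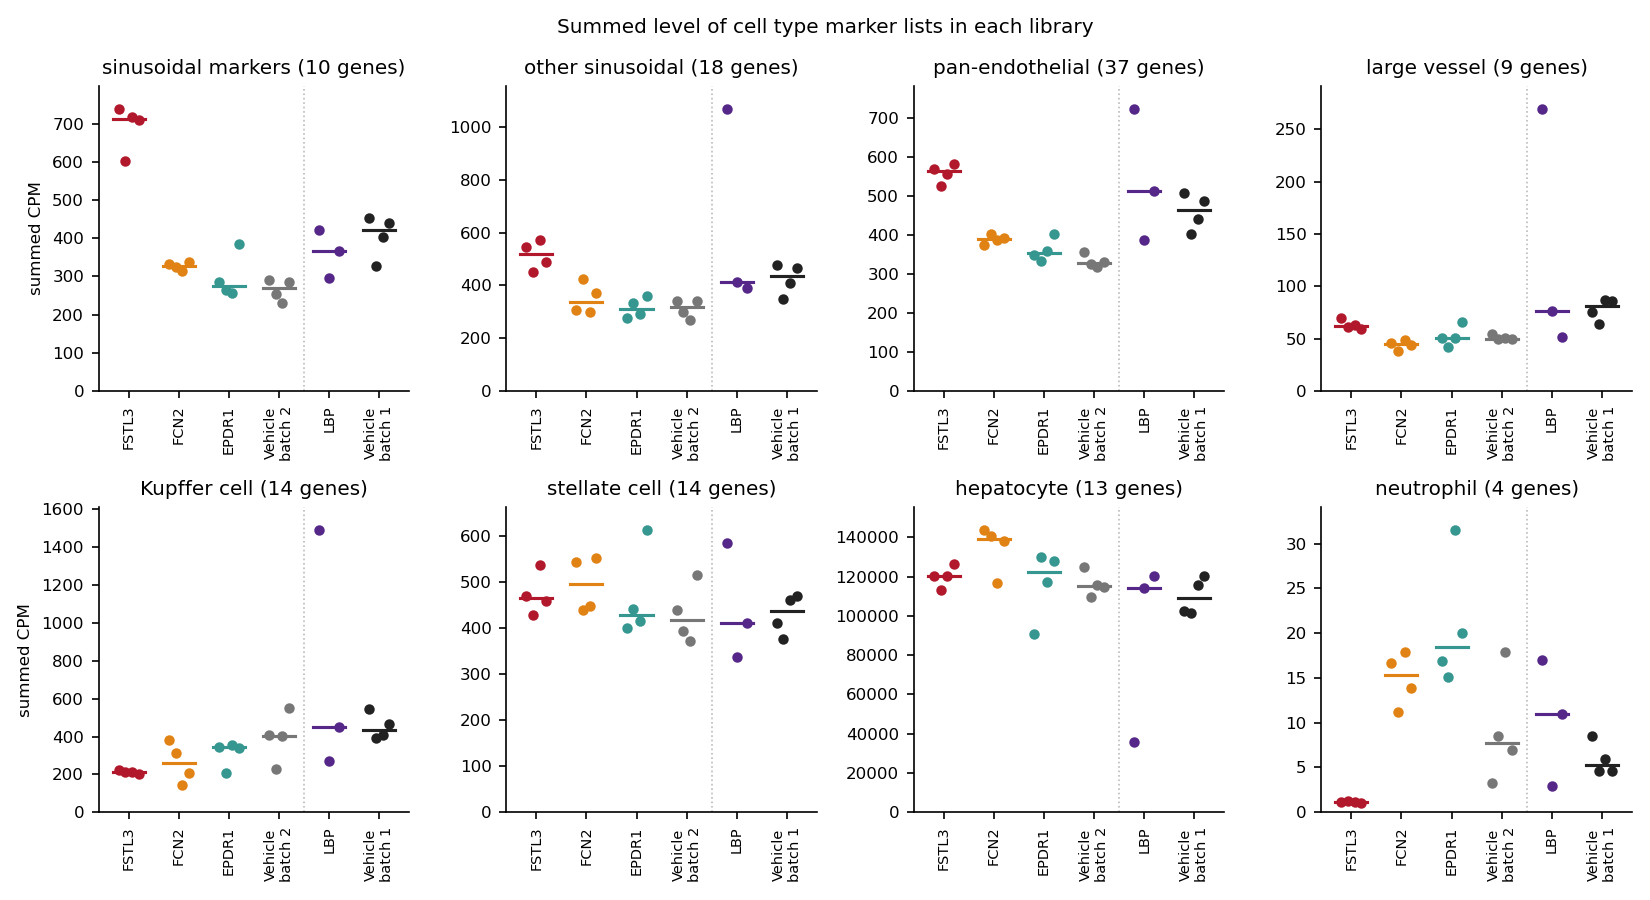
Summed level (CPM, linear axis) of marker gene lists in the 23 libraries by group. The lists drawn are sinusoidal, other sinusoidal, general endothelial, large-vessel, Kupffer cell, stellate cell, hepatocyte and neutrophil genes. Points are libraries and lines are group medians. The sinusoidal marker genes reach 603 to 740 CPM in FSTL3 livers and 231 to 291 CPM in batch 2 vehicle livers. The hepatocyte sums overlap at 113250 to 126364 CPM and 109734 to 124722 CPM. The sums are not corrected for exon length.

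Genes whose level followed that of Stab2 over the 23 libraries were ranked by the root mean square difference of centred log2 CPM. The nearest 5 were Dip2b (0.303 log2 units), Trrap (0.334), Tmem245 (0.345), Herc1 (0.389) and Lama1 (0.394), whose exons span 9681 to 27464 bases. Among the marker genes Stab1 came nearest, at rank 271 of the 11969 genes with 0.606 log2 units, followed by Ptprb at rank 354 and Kdr at rank 1049, and Lyve1 was farthest at rank 8360. All 5 nearest genes are longer than Stab2 in exon bases. Without LBP replicate 2, the ranks of Stab1, Ptprb and Kdr were 63, 107 and 522, and the 5 nearest genes kept Dip2b and Trrap and took in 3 others.

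The identity of each gene in the count table is as follows, with coordinates of GRCm38 and counting over exons. Stab1 (ENSMUSG00000042286) lies at chr14:31139013-31168641 and Stab2 (ENSMUSG00000035459) at chr10:86841198-87008025, both on the minus strand, in 58 and 72 blocks of exon. Kdr (ENSMUSG00000062960) lies at chr5:75932827-75978458, Ptprb (ENSMUSG00000020154) at chr10:116275523-116389535, Eng (ENSMUSG00000026814) at chr2:32646595-32682669 and Tek (ENSMUSG00000006386) at chr4:94739289-94874976. Mrc1 (ENSMUSG00000026712) lies at chr2:14229392-14332057, Lyve1 (ENSMUSG00000030787) at chr7:110850607-110863239, Clec4g (ENSMUSG00000074491) at chr8:3707064-3720651 and Oit3 (ENSMUSG00000009654) at chr10:59422958-59441778. Of these genes 4 share exon bases with a neighbour, Stab1 with Nt5dc2 over 112 bases, Stab2 with Gm16268 over 141, Clec4g with Gm16553 over 146 and Eng with Fpgs over 61, and since no strand option is recorded, reads from these stretches cannot be assigned to one gene.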

How the data were processed

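Liver RNA of C57BL/6J mice was sequenced from 800 ng of total RNA per library (KAPA Hyper-prep kit, paired reads of 50 bases, Illumina HiSeq, per the labels' protocols). Reads were aligned with STAR 2.6.0c to GRCm38, per the submitters' processing notes, and the deposited counts per gene were made with featureCounts 1.6.3 on Ensembl 95, per the file headers, where no strand or multi-mapping option is recorded. Of 54838 genes, 54723 were matched to symbols.

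The counts of all 23 libraries were fitted in 1 model of 6 groups with edgeR 4.0.16 (R 4.3.3): filterByExpr, which left 11969 genes, TMM scaling and the quasi-likelihood test with Benjamini-Hochberg adjustment over all genes tested. CPM uses TMM-scaled totals. Errors of fold changes are SE. The procedure was tested on simulated data. Alternatives were DESeq2 1.42.0, limma-voom (limma 3.58.1), other filters, scalings and groups in the fit, a replicate block, each replicate left out and a lowess trend on exon length (span 0.3). No replicate pair of 33 agreed within sampling noise (lowest chi-square per degree of freedom 2.27). The members and gene lists were chosen with earlier results of these data known. All 10 members were named in each comparison; of the other endothelial genes, the 8 highest and 8 lowest called in FSTL3 against the batch 2 vehicle and the 3 highest and 3 lowest called in each other comparison, with large-vessel genes called in the first. For counting precision, the 10 genes had between 1 and 2837 reads in a library.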

Additional observations from a re-analysis of the deposited data

Results flagged for a closer look

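Ptprb in FSTL3 replicate 2 had 175 CPM, apart from the other 3 FSTL3 libraries at 236 to 238 CPM by a gap large relative to the range of the group. It was the only 1 of 50 combinations of marker gene and group of 4 libraries to stand out in this way, where chance alone gives about 1 in 20. The value lay above every Ptprb value outside the FSTL3 group, the highest of which was 144 CPM.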

How the results depend on the processing

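Of the 10 genes, 7 were called in FSTL3 against the batch 2 vehicle, and 6 to 8 with 1 library left out. The corresponding ranges were 4 to 8 against the batch 1 vehicle, 5 to 8 over EPDR1, 5 to 5 over FCN2, 2 to 6 between the vehicles, 0 to 4 for FCN2, 0 to 0 for EPDR1 and 0 to 1 for LBP. For FCN2, DESeq2 called 1 and a fit of the 2 groups alone 4, where they called 7.68% and 13.9% of all genes. With LBP replicate 2 left out, an alternative added after seeing the data, 5 were called with the length trend removed and 4 with the replicate block, in fits that called 19.6% and 16.1% of all genes. Against the batch 1 vehicle, a fit of the 2 groups alone called 8 and the trend-free fit 1. Those fits called 57.9% and 23.5% of all genes. Between the vehicles the unfiltered fit called 2, and 2.11% of all genes. Pairs of libraries with the same number did not all deviate together (correlations -0.129 to 0.31). With the replicate block, 8 genes (Oit3 added) passed in FSTL3 against the batch 2 vehicle and 7 over EPDR1. Of all genes, 42.1% and 45.1% passed in these 2 comparisons. No block could be fitted across batches. Over all genes, the FCN2 count of 97 was 787 with DESeq2, 1409 with the 2 groups alone, 2314 without LBP replicate 2, 9 unfiltered and 0 without the FSTL3 libraries, and the LBP count of 922 was 0 with the 2 groups alone, 3 with limma-voom, 11 with the block and 89 without LBP replicate 2. The count of 1456 between the vehicles was 3715 without that library. The median of all genes in FSTL3 against the batch 2 vehicle was 0.26 without the filter and 0.16 with DESeq2, against 0.06. Causes of these changes were not tested.

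The sign of some small log2 fold changes turned. With the trend removed, alone and with LBP replicate 2 left out, these were Clec4g over the batch 2 vehicle (0.23 and 0.23), Vwf (-0.24 and -0.26), and over EPDR1 Clec4g (0.072 and 0.067) and Lyve1 (0.17 and 0.17). Clec4g in FSTL3 over FCN2 was -0.022 with DESeq2, -0.0004 with limma-voom, -0.028 with DESeq2 size factors, -0.082 with the 2 groups alone and -0.034 on nuclear protein-coding genes. Eng in EPDR1 was 0.0035 with DESeq2, 0.0031 with its size factors and 0.012 with the trend removed, and in LBP 0.0067, 0.016 and 0.19, with 0.014 for the 2 groups alone. In LBP, limma-voom, the unfiltered fit, and the trend-free and block fits without replicate 2 gave Kdr -0.026, -0.042, -0.21 and -0.32 and Ptprb -0.029, -0.013, -0.37 and -0.44, and the last gave Maf -0.027. Leaving out 1 library, Clec4g ran from -0.18 to 0.0065 in FSTL3 over the batch 2 vehicle, -0.16 to 0.0029 in FCN2, -0.015 to 0.26 in EPDR1 and -0.073 to 0.056 in FSTL3 over FCN2. In EPDR1, Eng ran from -0.19 to 0.12, Oit3 from -0.039 to 0.35, Stab2 from -0.046 to 0.34 and Tek from -0.042 to 0.22. In LBP, Eng ran from -0.69 to 0.19, Kdr from -0.24 to 0.29 and Ptprb from -0.41 to 0.31. Tek between the vehicles ran from -0.30 to 0.080, and Lyve1 from -0.65 to 0.019 over FCN2 and -0.39 to 0.42 over EPDR1 in FSTL3. As reported, of these only Vwf and Maf had passed the test.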
